A study of Mus musculus with 16 samples.

Results

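The data address whether the response of bone marrow stem and progenitor cells to 5-fluorouracil (5-FU), a pyrimidine analogue that kills dividing cells, depends on 1 motif in an enhancer of Gata2. GATA2 is a DNA-binding factor of the GATA family on which blood stem and progenitor cells rely, and the +9.5 enhancer lies in an intron of its gene and binds GATA and Ets factors. The quantity described is a difference of differences for each gene, namely the response to 5-FU in mutant mice (5-FU minus PBS) minus the same response in wild-type mice, on the log2 scale. All 16 of the 16 libraries of the series enter it. They come from 4 groups of C57BL/6J mice aged 8 to 14 weeks: wild type given PBS (n = 5), Gata2 +9.5(Ets)-/- given PBS (n = 5), wild type given 5-FU at 250 mg/kg (n = 3) and Gata2 +9.5(Ets)-/- given the same dose of 5-FU (n = 3). The mutant carries a C-to-T change in the Ets motif of the enhancer. Cells were taken 10 days after the injection and sorted as LSK cells, the marrow fraction that lacks lineage markers (B220, CD3, CD4, CD5 and CD8) and carries Sca-1 and c-Kit. It holds hematopoietic stem cells and multipotent progenitors, and 3000 to 10000 cells went into a library. The labels do not say whether each library came from a separate mouse, so the p-values measure the spread between libraries, which may be technical.

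In this fraction, cells that begin to express the receptor tyrosine kinase FLT3 and, among them, those that start lymphoid genes such as Dntt and Rag1 are known as lymphoid-primed multipotent progenitors, which give rise to B, T and innate lymphoid cells. 5-FU removes most cycling progenitors, and the marrow then regrows from surviving stem cells. Genes were sorted by which of the 4 groups stood apart: a group departs where the gap from its mean log2 CPM (read counts brought to a common library size with TMM factors) to the nearest other group mean exceeds the range of the other 3 means.

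The libraries held between 19370153 and 28883365 expected counts each. Immunoglobulin genes took 3.67% to 50.2% of the counts in the 10 PBS libraries, 0.0392% to 0.332% in the wild-type 5-FU libraries and 5.69%, 16.9% and 26.6% in mutant 5-FU replicates 3, 2 and 1. The share in the mutant 5-FU libraries thus lay inside the range of the PBS libraries, and no wild-type 5-FU library reached the lowest of the other 13. Kit ran from 95.5 to 572 CPM and Ly6a, which encodes Sca-1, from 114 to 3787 CPM, the highest values of Ly6a standing in wild-type PBS replicate 3 and mutant PBS replicate 3 (3787 and 3511 CPM). Of the genes for lineage markers in the gate, Cd3e stayed at or under 1.25 CPM, Cd8b1 at or under 2.11 CPM, Cd5 at or under 2.5 CPM and Cd4 at or under 6.35 CPM, and Cd8a did not pass the filter on low counts. B220 is an isoform of the product of Ptprc, which ran from 122 to 247 CPM, and counts per gene do not give the isoform. The labels do not state the meaning of the sample codes. Codes that share their leading digits hold both treatments of 1 genotype only for code prefixes 715 and 0507. Prefix 715 has wild-type libraries (2 PBS and 1 5-FU) and 0507 mutant ones (2 PBS and 3 5-FU), so genotype and code prefix cannot be told apart. A fit with code prefix as a factor takes each response from these libraries alone. Its wild-type response thus rests on 1 5-FU library, and its values are given without a test. Wild-type 5-FU replicates 1 and 2, whose prefix 509 holds no PBS library, do not enter that response. All mutant 5-FU codes begin with 0 and no wild-type 5-FU code does.

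Of 16482 genes tested, 97 (0.589%) had a response to 5-FU that differed between the genotypes at an adjusted p under 0.05 (edgeR quasi-likelihood test with Benjamini-Hochberg adjustment). The response was higher in the mutant for 92 of them (0.558% of the genes tested) and lower for 5 (0.0303%). The difference had a median of 6.59 on the log2 scale among the 92 and -2.32 among the 5, against 0.07 over all genes tested. At an unadjusted p under 0.05 there were 1788 genes (10.8%). The largest adjusted p inside the threshold was 0.049 and the smallest outside it was 0.0505. The same fit gave 2450 genes (14.9%) changed by 5-FU in wild type (915 rose, 5.55%, and 1535 fell, 9.31% of those tested), 362 (2.2%) changed by 5-FU in the mutant (138 rose, 0.837%, and 224 fell, 1.36%), 3 (0.0182%) that differed between the genotypes under PBS and 321 (1.95%) that differed between them after 5-FU, 245 of them (1.49%) higher in the mutant. These contrasts share libraries, and the difference of differences is their own test.

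The genes sorted mainly into 1 pattern. In 69 of the 97 (71.1%) the wild-type 5-FU group was low while the other 3 groups lay together, and in 67 of these no wild-type 5-FU library overlapped any other library. The same pattern covered 20.5% of all genes tested, and it had no such overlap in 922 genes (5.59% of those tested). Mutant 5-FU was the group that stood apart in 8 genes: it was high in 5 (5.15% of the genes called, against 5.17% of all genes tested) and low in 3 (3.09% against 4.79%). Wild-type 5-FU was high in 1 gene, Dock9 (1.03% of the genes called, against 16.6% of all genes tested). No single group departed in 19 genes (19.6% against 43.1%). A PBS group departed in none of the 97. Over all genes tested, wild-type PBS was high in 2.88% and low in 3.15%, and mutant PBS was high in 1.55% and low in 2.21%. Each of the 92 higher genes had its lowest group mean in wild-type 5-FU.

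**Figure D1:**
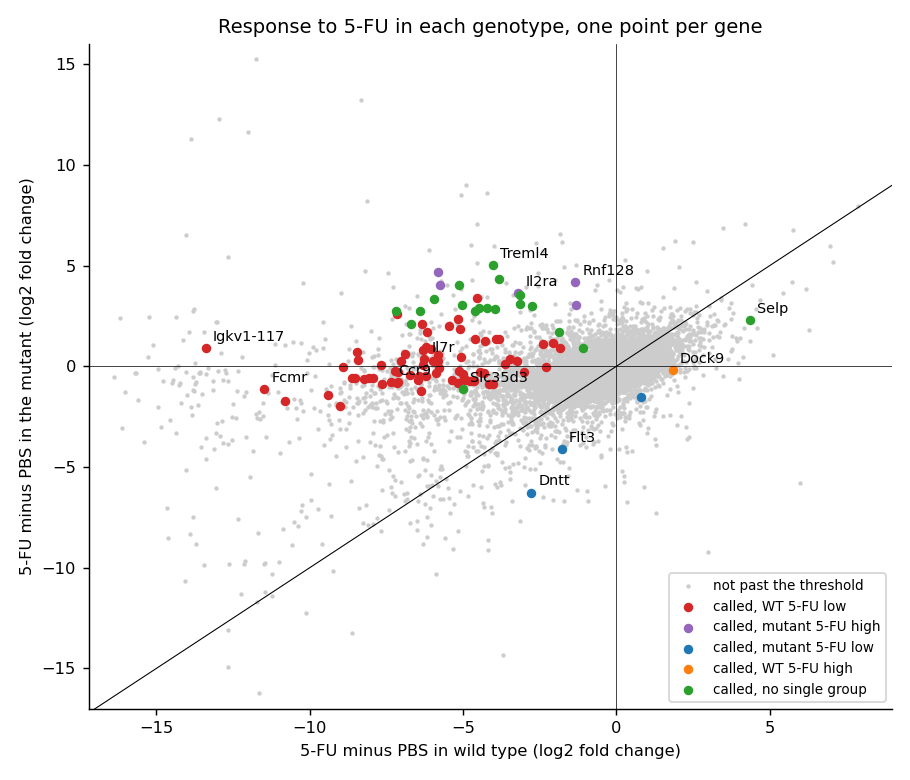
Log2 fold change between 5-FU and PBS in wild type (x) and in the mutant (y), 1 point per gene tested; grey genes did not pass the threshold, coloured genes did and are coloured by the group that departed, and the diagonal marks equal responses. The red genes, in which wild-type 5-FU was low, spread along the x axis from -13.39 to -1.84 and between -1.96 and 3.39 on the y axis.

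Among the 69 genes with wild-type 5-FU low, the response in wild type ran from -13.39 to -1.84 (log2, median -6.03). The response of the same genes in the mutant ran from -1.96 to 3.39 with a median of -0.09, and for 51 of them it was under 1 in size. Under PBS the genotypes differed by less than 1 (log2) in 60 of the 69. The sorting rule asks that the other 3 group means lie close together, so these small values describe the rule and support nothing beyond it. Very low counts stood behind many of these genes: 75 of the 92 higher genes were under 1 CPM on average in wild-type 5-FU, 8 had no count in any of its 3 libraries and 16 had 1 to 3 counts over the 3. A fitted log2 value of such a gene depends on the small count that edgeR adds, and folds against a group at 0 are given below as lower bounds at 3 counts per library. In bulk libraries, fewer cells of a type and less RNA per cell cannot be told apart.

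The lymphoid-primed progenitor genes moved in both directions. Of 15 genes on that list, 3 were lower in the mutant response, among them Flt3 and Dntt, and 2 were higher (Il7r and Ccr9), and 10 did not pass the threshold. The list's median difference was -0.56 on the log2 scale, or -0.39 with genes at 0 in a group set to their bound, against 0.07 over all genes. The stretches of 250 bases just upstream of the RefSeq start of Flt3, Dntt, Il7r and Ccr9 are shown because these 4 genes went opposite ways within 1 list (RefSeq, GRCm38.p6, 5′ to 3′ in the direction of transcription). The RefSeq starts of Il7r and Ccr9 lie inside the wider GENCODE bounds given for these genes below, so their windows lie within those bounds. Capitals mark every match, on either strand, to the GATA motif AGATAA or the Ets motifs CCGGAA and CAGGAA.
Flt3, chr5:147400490-147400739, minus strand: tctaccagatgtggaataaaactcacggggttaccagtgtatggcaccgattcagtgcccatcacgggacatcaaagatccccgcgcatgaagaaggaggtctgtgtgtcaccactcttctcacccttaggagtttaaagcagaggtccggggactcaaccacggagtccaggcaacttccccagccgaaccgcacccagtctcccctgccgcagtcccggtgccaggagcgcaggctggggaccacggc
Dntt, chr19:41029025-41029274, plus strand: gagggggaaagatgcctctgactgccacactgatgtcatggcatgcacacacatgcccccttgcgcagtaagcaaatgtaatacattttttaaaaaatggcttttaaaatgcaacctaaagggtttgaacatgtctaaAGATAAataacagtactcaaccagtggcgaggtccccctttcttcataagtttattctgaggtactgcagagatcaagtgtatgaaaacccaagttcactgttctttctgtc
Il7r, chr15:9529877-9530126, minus strand: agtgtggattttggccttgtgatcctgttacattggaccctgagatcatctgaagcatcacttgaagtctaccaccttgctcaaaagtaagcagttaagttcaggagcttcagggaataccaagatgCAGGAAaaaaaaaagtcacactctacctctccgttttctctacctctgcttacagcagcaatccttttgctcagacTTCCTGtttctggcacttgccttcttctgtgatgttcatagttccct
Ccr9, chr9:123766961-123767210, plus strand: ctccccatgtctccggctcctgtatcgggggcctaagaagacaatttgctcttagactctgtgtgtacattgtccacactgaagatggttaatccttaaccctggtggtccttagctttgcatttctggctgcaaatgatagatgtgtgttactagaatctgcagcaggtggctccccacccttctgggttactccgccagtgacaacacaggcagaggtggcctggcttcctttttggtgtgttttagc
The Dntt window holds 1 AGATAA and the Il7r window holds CAGGAA once on each strand, printed as TTCCTG where it lies on the other strand. The windows of Flt3 and Ccr9 hold none of the 3 motifs. Over all 32851 windows of this length, 9.99% hold AGATAA, 12% CCGGAA and 25.7% CAGGAA. Of the 97 genes called, 73 had an entry, and among the 86 windows of the higher genes the shares were 8.14%, 5.81% and 31.4%. CCGGAA and CAGGAA share the core GGAA, and matches to different motifs can share bases. A match describes the window only.

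Flt3, the receptor of FLT3 ligand (ENSMUSG00000042817.15, chr5:147330741-147400489, minus strand, GRCm38), fell after 5-FU in both genotypes and fell further in the mutant. It stood at 462, 383, 343, 421 and 507 CPM in wild-type PBS replicates 1 to 5 and at 434, 406, 204, 408 and 377 CPM in mutant PBS. After 5-FU it stood at 104, 105 and 162 CPM in wild type and at 22.3, 22.7 and 17.8 CPM in the mutant. The 3 mutant 5-FU libraries were below all 13 others, and the 3 wild-type 5-FU libraries were below all 10 PBS libraries. The fall was -1.78 ± 0.26 (log2 ± SE) in wild type (adjusted p = 0.000791) and -4.13 ± 0.30 in the mutant (adjusted p = 1.93e-06), a difference of -2.35 ± 0.35 (adjusted p = 0.00798). It kept its call without any 1 of the 16 libraries, between -2.54 and -2.11.

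Dntt, which encodes the terminal transferase that adds bases at the joins of antigen receptor genes (chr19:41029275-41059525, plus strand), showed the same order of groups. Wild-type PBS libraries held 739, 437, 311, 710 and 506 CPM and mutant PBS libraries 708, 905, 217, 475 and 435 CPM. Levels after 5-FU were 63.1, 31.7 and 143 CPM in wild type and 8.73, 5.58 and 6.96 CPM in the mutant, with no overlap between the groups. The responses were -2.77 ± 0.52 in wild type (adjusted p = 0.00361) and -6.27 ± 0.63 in the mutant (adjusted p = 8.66e-05), and their difference was -3.50 ± 0.67 (adjusted p = 0.0266). The call ended without mutant PBS replicate 1 (adjusted p = 0.0527), wild-type 5-FU replicate 1 (0.0795) or 3 (0.0737), or mutant 5-FU replicate 1 (0.0502), 2 (0.0789) or 3 (0.0676).

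The mean log2 CPM of Flt3 and Dntt in the mutant 5-FU libraries was 3.81, 3.51 and 3.49 at immunoglobulin shares of 26.6%, 16.9% and 5.69%. In each PBS group it was lowest at the highest share. It was 8.35 at 44.2% in wild-type PBS, against 8.68 to 9.19 in the rest of that group. In mutant PBS it was 7.72 at 50.2%, against 8.66 to 9.24 in the rest. The part of the share was not tested beyond the covariate fit. With the immunoglobulin share as a covariate, no gene passed (0 of 16482, with 1474 at an unadjusted p under 0.05), and the values were -2.22 for Flt3 and -4.67 for Dntt. With code prefix as a factor, where the wild-type response rests on 1 5-FU library, the values were -2.81 for Flt3 and -4.74 for Dntt.

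Dock9, an activator of the small GTPase CDC42 (chr14:121542046-121797837, minus strand), was the gene in which wild-type 5-FU stood high. Values were 7.85, 7.58, 8.98, 7.93 and 9.86 CPM in wild-type PBS, 7.84, 9.83, 12.1, 8.34 and 7.39 CPM in mutant PBS, 25.5, 37.8 and 27.4 CPM in wild-type 5-FU and 6.49, 10.9 and 6.35 CPM in mutant 5-FU. Of the mutant 5-FU libraries, 1 lay within the PBS range and the other 2 lay below it, and all 3 were below wild-type 5-FU. It rose by 1.84 ± 0.23 in wild type (adjusted p = 0.000266), against -0.20 ± 0.24 in the mutant (adjusted p = 0.819), a difference of -2.04 ± 0.34 (adjusted p = 0.0135). Without wild-type 5-FU replicate 1 or 2 the adjusted p was 0.0517 or 0.0834.

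Selp, the adhesion receptor P-selectin of platelets, megakaryocytes and endothelium (chr1:164115264-164150026, plus strand), rose in both genotypes, from a higher start in the mutant. It held 10.2, 11.6, 7.8, 11.2 and 16.4 CPM in wild-type PBS and 34.5, 24.9, 24.2, 42.3 and 46.3 CPM in mutant PBS, with no overlap. After 5-FU it held 214, 218 and 278 CPM in wild type and 165, 182 and 155 CPM in the mutant. The rise was 4.36 ± 0.26 in wild type (adjusted p = 1.62e-07) and 2.28 ± 0.24 in the mutant (adjusted p = 0.000117). The genotypes differed by 1.58 under PBS (adjusted p = 0.011) and by -0.50 after 5-FU (adjusted p = 0.334). The difference of responses was -2.09 ± 0.35 (adjusted p = 0.0141), and it missed the threshold without wild-type 5-FU replicate 1 (0.0561) or 2 (0.053).

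**Figure D2:**
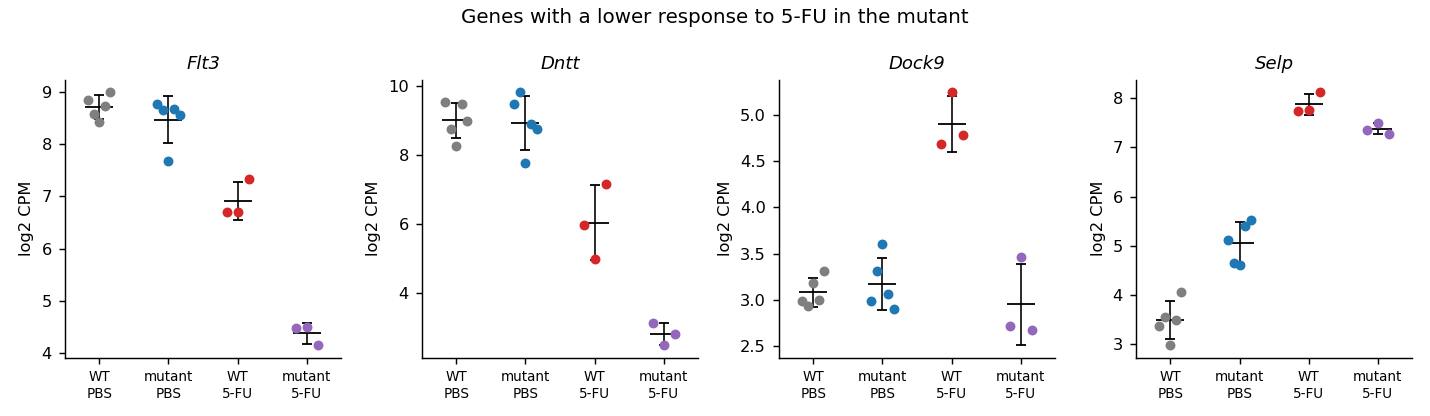
Log2 CPM (TMM, prior count of 2) of 4 of the 5 genes with a lower response in the mutant, 1 point per library in each of the 4 groups; bars give the mean and SD. Mutant 5-FU is lowest for Flt3 and Dntt, wild-type 5-FU is highest for Dock9, and both 5-FU groups exceed the PBS groups for Selp.

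Il7r, the alpha chain of the interleukin-7 receptor that lymphoid precursors depend on (chr15:9505788-9530176, minus strand), was nearly absent from the wild-type 5-FU libraries. It stood at 18.5, 21.6, 18.5, 12.3 and 11.7 CPM in wild-type PBS, 15.9, 18.3, 9.6, 5.07 and 5.26 CPM in mutant PBS, 0.0607, 0.0798 and 0.532 CPM in wild-type 5-FU and 19.3, 4.66 and 17.5 CPM in mutant 5-FU. The wild-type 5-FU libraries were below all others, and mutant 5-FU overlapped both PBS groups. It fell by 6.26 ± 0.81 in wild type (adjusted p = 0.000296), while the change in the mutant was a positive 0.35 ± 0.55 (adjusted p = 0.862), and the difference of 6.61 ± 0.93 (adjusted p = 0.00534) passed without any 1 library. With code prefix as a factor it was 4.18.

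Ccr9, the chemokine receptor that guides progenitors to the thymus and lymphocytes to the gut (chr9:123678439-123784330, plus strand), had the same pattern. Wild-type PBS libraries held 27.3, 29.2, 12.5, 8.94 and 19.1 CPM and mutant PBS libraries 13.9, 15.8, 7.31, 9.58 and 10.6 CPM. The level was 0.152, 0.0798 and 0.114 CPM in wild-type 5-FU and 2.83, 3.87 and 13.4 CPM in mutant 5-FU. Wild-type 5-FU lay apart from every other library, and 2 of the 3 mutant 5-FU libraries lay below the PBS range. The difference of responses was 6.57 ± 0.80 (adjusted p = 0.00267), and it passed without any 1 library. It was 5.74 with code prefix as a factor and 7.28 with the immunoglobulin share as a covariate (adjusted p = 0.0898).

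The higher genes, Il7r and Ccr9 included, were read by the cell type in which each is best known. This grouping was made after the genes were seen and only for genes already called. The counts per kind therefore have no background over all genes, and the direction and the low wild-type 5-FU values are what the genes were called for. B and plasma cell genes numbered 13, all higher, all with wild-type 5-FU low and none with an overlap of its libraries with any other. Their mean log2 CPM was 4.24 to 6.52 in the wild-type PBS libraries, 3.02 to 6.70 in mutant PBS, -1.18 to -0.71 in wild-type 5-FU and 3.75 to 5.62 in mutant 5-FU. Ighm and Igkv1-117 are themselves part of the immunoglobulin share. The mean of the other 11 was 4.19, 3.92 and 2.27 in the mutant 5-FU libraries at shares of 26.6%, 16.9% and 5.69%, and -1.81 to -1.42 in wild-type 5-FU, the group with the lowest shares. The part of the share in the result was not tested apart from the covariate fit.

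Ms4a1, which encodes the B cell surface protein CD20, held 44.5, 25.8, 24, 17 and 9.4 CPM in wild-type PBS, 20.8, 20.5, 32.4, 4.02 and 5.75 CPM in mutant PBS, 0.0911, 0 and 0 CPM in wild-type 5-FU and 11.7, 4.95 and 2.28 CPM in mutant 5-FU. With 3 counts over the wild-type 5-FU libraries, mutant 5-FU was 190-fold higher (95% counting interval 64.5 to 922). The difference of responses was 7.99 ± 1.30 (adjusted p = 0.0117), and it missed the threshold without wild-type 5-FU replicate 1 (0.0517) or 2 (0.0834). Fcmr, the Fc receptor for IgM, was at 0 in all 3 wild-type 5-FU libraries, against 6.41, 11.4 and 1.52 CPM in mutant 5-FU and 3.57 to 37.5 CPM in the 10 PBS libraries. That is at least 68-fold higher in mutant than in wild-type 5-FU. Its fitted difference of 10.36 ± 1.77 (adjusted p = 0.0198) is no bound, and the value with the floor of 3 counts was 6.08. Its call ended without any 1 of the wild-type 5-FU libraries (adjusted p 0.0551 to 0.101).

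Blk, a Src-family kinase of the B cell receptor, was also at 0 in wild-type 5-FU and at least 19.8-fold higher in mutant 5-FU (fitted difference 9.07, adjusted p = 0.0266). Irf4, a transcription factor that plasma cells need, held 59.6, 60.2, 126, 60.6 and 14.7 CPM in wild-type PBS, 38.9, 44.8, 117, 21.9 and 4.74 CPM in mutant PBS, 0.577, 0.266 and 0.532 CPM in wild-type 5-FU and 66, 35.2 and 10.9 CPM in mutant 5-FU. Its mutant 5-FU values fell in the order of the immunoglobulin share (26.6%, 16.9% and 5.69%). The difference for Irf4 was 6.85 ± 1.30 (adjusted p = 0.0272) and 0.07 with the immunoglobulin share as a covariate, and its call ended in 8 of the 16 fits that left out 1 library, the highest adjusted p being 0.15. Ikzf3, Pou2af1 and Ighm were also higher, at 8.04, 6.96 and 6.75 on the log2 scale, and at 1.58, -0.01 and -0.37 with that covariate. Pou2af1 and Ighm are named after their values were seen.

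Immunoglobulin genes themselves supplied 2 of the 92 higher genes, Ighm and Igkv1-117. Of 197 tested, 189 had a difference above 0, against 54% of all genes tested, with a median of 9.70 against 0.07. The 9.70 is a median of fitted values without bounds, and all these genes together took 0.0392% to 0.332% of the counts in wild-type 5-FU. Its size therefore depends on the small count that edgeR adds. Igkv1-117 ranged from 0.597 to 2215 CPM over the PBS libraries, 0.038 to 0.0798 CPM in wild-type 5-FU and 211 to 1349 CPM in mutant 5-FU (difference 14.30 ± 2.91, adjusted p = 0.049). Its call held in 4 of the 16 fits that left out 1 library, and reads from variable genes that resemble one another may be split among them by the counting.

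T, NK and innate lymphoid genes, among them Il7r given above, numbered 18, all higher. Wild-type 5-FU was the low group in 9 of them, mutant 5-FU was high in 3, and no single group departed in 6. Their mean log2 CPM was 0.15 to 1.82 in wild-type PBS, -0.38 to 0.73 in mutant PBS, -2.90 to -2.49 in wild-type 5-FU and 1.34 to 2.67 in mutant 5-FU. High values in mutant 5-FU are favoured by the choice of genes with a higher mutant response. The defining T cell gene Cd3e was at 0 in both 5-FU groups, and Cd3g, Cd2, Gzma and Prf1 were at 0 in wild-type 5-FU. The summed CPM of the 15 T and NK cell markers was 125 to 559 in wild-type PBS, 209 to 392 in mutant PBS, 127 to 215 in wild-type 5-FU and 96.5 to 187 in mutant 5-FU. The ranges of that sum overlapped between the 5-FU groups, and its lowest value was in a mutant 5-FU library.

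Trbc2, a constant segment of the T cell receptor beta chain (chr6:41546730-41548352, plus strand), held 4.3, 4.39, 9.34, 2.43 and 2.79 CPM in wild-type PBS, 2.08, 1.82, 1.94, 1.54 and 2.54 CPM in mutant PBS, 0.0607, 0 and 0.114 CPM in wild-type 5-FU and 4.33, 1.78 and 4.43 CPM in mutant 5-FU. The difference of 7.11 ± 0.92 (adjusted p = 0.00267) passed without any 1 library and was 6.14 with the immunoglobulin share as a covariate. Trbc1, a near-identical copy whose reads the counting could share with Trbc2, gave 8.74 (adjusted p = 0.00646) on 1 count in wild-type 5-FU, where mutant 5-FU was 151-fold higher (counting interval 26.6 to 6000).

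Il2rb, Rasgrp1 and Cxcr6 had no single departing group: wild-type 5-FU was lowest and mutant 5-FU highest. Rasgrp1, an activator of Ras downstream of the T cell receptor, held 0.337 to 5.55 CPM in wild-type PBS, 0.0981 to 1.59 CPM in mutant PBS, 0, 0.0798 and 0 CPM in wild-type 5-FU and 7.44, 7.83 and 10.9 CPM in mutant 5-FU. All 3 mutant 5-FU libraries were thus above the other 13. It fell by 5.95 ± 1.17 in wild type (adjusted p = 0.00475) and rose by 3.36 ± 0.79 in the mutant (adjusted p = 0.0343), and the difference was 9.30 ± 1.42 (adjusted p = 0.00798). Cxcr6, a chemokine receptor of innate lymphoid, NK and memory T cells, held 17.4, 12.2 and 25.2 CPM in mutant 5-FU, 0.076 to 0.346 CPM in wild-type 5-FU and 0.621 to 8.35 CPM over the PBS libraries. Its difference was 7.35 ± 1.16 (adjusted p = 0.00954), and 6.16 with code prefix as a factor. For Il2rb, a receptor chain for interleukins 2 and 15, the difference was 9.89 (adjusted p = 0.00798) on 2 counts in wild-type 5-FU, and mutant 5-FU was 303-fold higher (counting interval 83.6 to 2510). Without wild-type 5-FU replicate 1 the adjusted p was 0.0561 for Rasgrp1 and Il2rb and 0.067 for Cxcr6, and without replicate 2 it was 0.0542 for Il2rb.

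Mutant 5-FU stood high in Rnf128, Il2ra, Gimap3, Tcrg-C4 and Gm4956. Rnf128, an E3 ubiquitin ligase known from T cell anergy (chrX:139563316-139673145, plus strand), was the 1 of these that did not depend on any single library. It held 4.65, 5.7, 5.99, 1.53 and 2.23 CPM in wild-type PBS, 1.91, 0.988, 3.26, 2.29 and 3.1 CPM in mutant PBS, 1.94, 1.36 and 1.41 CPM in wild-type 5-FU and 40, 21.1 and 62.8 CPM in mutant 5-FU. Every mutant 5-FU library was above the other 13. It rose by 4.16 ± 0.47 in the mutant (adjusted p = 0.000176), against -1.34 ± 0.49 in wild type (adjusted p = 0.071), and the difference was 5.50 ± 0.70 (adjusted p = 0.00267). The value was 5.24 with code prefix as a factor and 5.48 with the immunoglobulin share as a covariate (adjusted p = 0.245).

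Il2ra, the alpha chain of the interleukin-2 receptor, held 13.8, 5.99 and 13.3 CPM in mutant 5-FU, 0, 0 and 0.19 CPM in wild-type 5-FU and 0.25 to 1.61 CPM over the 10 PBS libraries. The mutant 5-FU libraries were again above all others (difference 6.83 ± 1.25, adjusted p = 0.0222), and without wild-type 5-FU replicate 1 or 2 the adjusted p was 0.103 or 0.106. Gimap3, a GTPase of the immune-associated family expressed in T cells, held 81.7, 28.4 and 71.9 CPM in mutant 5-FU against 2.02 to 19.1 CPM in the other 13 libraries (difference 4.34 ± 0.70, adjusted p = 0.0117), and 0.0728 or 0.0727 was its adjusted p without wild-type 5-FU replicate 1 or 2. Tcrg-C4, a constant segment of the T cell receptor gamma chain, held 23.9, 3.87 and 13.7 CPM in mutant 5-FU and up to 10.5 CPM in wild-type PBS, so these groups overlapped. Its difference of 9.77 ± 2.01 (adjusted p = 0.0375) passed in 6 of the 16 fits that left out 1 library. Gm4956, a predicted gene named after its value was seen, was at 10.48 on 1 count in wild-type 5-FU.

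Monocyte, macrophage and granulocyte genes numbered 18, all higher, with wild-type 5-FU low in 14 and no single departing group in 4. Their mean log2 CPM was 1.72 to 4.00 in wild-type PBS, 1.73 to 2.53 in mutant PBS, -1.56 to -0.72 in wild-type 5-FU and 1.85, 3.23 and 4.78 in mutant 5-FU replicates 1, 2 and 3. Among the mutant 5-FU libraries they were highest where the immunoglobulin share was lowest. Cd300lf, an inhibitory receptor of myeloid cells (chr11:115116214-115133992, minus strand), had the smallest p of all genes tested and is named for that. It held 19.5, 14.1, 20.5, 15.6 and 11.3 CPM in wild-type PBS, 5.59, 10.3, 14.7, 9.42 and 7.13 CPM in mutant PBS, 0.304, 0.585 and 0.532 CPM in wild-type 5-FU and 9.56, 7.64 and 21.5 CPM in mutant 5-FU. Mutant 5-FU overlapped both PBS groups, and wild-type 5-FU overlapped none. It fell by 5.08 ± 0.48 in wild type (adjusted p = 2.08e-05), while the change in the mutant was a positive 0.46 ± 0.36 (adjusted p = 0.683). The difference of 5.54 ± 0.57 (adjusted p = 0.000653) was 5.35 with code prefix as a factor and 5.35 with the immunoglobulin share as a covariate (adjusted p = 0.0898).

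Adgre1, which encodes the macrophage protein F4/80, held 1.81, 5.04 and 22.1 CPM in mutant 5-FU, 0.16 to 0.729 CPM in wild-type 5-FU and 1.56 to 13.1 CPM over the PBS libraries (difference 5.29 ± 1.05, adjusted p = 0.0288). Its call ended in 8 of the 16 fits that left out 1 library. Treml4, a receptor of splenic macrophages and dendritic cells, held 2.44, 13.9 and 50.8 CPM in mutant 5-FU, 0.121 to 0.228 CPM in wild-type 5-FU and 0 to 8.39 CPM over the PBS libraries. It changed in opposite directions, by -4.01 ± 1.20 in wild type (adjusted p = 0.0361) and 5.03 ± 1.00 in the mutant (adjusted p = 0.012), and the difference of 9.04 ± 1.62 (adjusted p = 0.0198) was lost without any 1 of the wild-type 5-FU libraries. Bcl2a1a and Bcl2a1d, counted in none of these cell-type groups, are near-identical copies of an anti-apoptotic gene of the BCL2 family. They gave 8.17 (adjusted p = 0.0266) and 8.06 (adjusted p = 0.0378), and the counting may split reads between them.

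Outside these 3 kinds stood 48 genes, 43 of them higher, and wild-type 5-FU was low in 33. Klf4, a zinc-finger factor of monocytes and of the immediate early list, held 2.7, 4.45, 10.5, 11.2 and 2.72 CPM in wild-type PBS, 5.76, 3.85, 4.49, 3.7 and 3.7 CPM in mutant PBS, 0.243, 0.106 and 0.266 CPM in wild-type 5-FU and 2.71, 1.05 and 4.4 CPM in mutant 5-FU. The difference was 4.27 ± 0.82 (adjusted p = 0.0266), lost in 6 of the 16 fits without 1 library. Gpr183, a receptor for oxysterols that positions lymphocytes and dendritic cells, held 0.0911, 0.106 and 0.114 CPM in wild-type 5-FU, 7.47, 2.66 and 4.34 CPM in mutant 5-FU and 1.7 to 8.98 CPM under PBS (difference 6.09 ± 0.76, adjusted p = 0.00267). Aldh3b1, an aldehyde dehydrogenase, held 1.31, 1.2 and 1.86 CPM in wild-type 5-FU, 18.4, 22.1 and 14 CPM in mutant 5-FU and 15.1 to 56.8 CPM under PBS (difference 3.90 ± 0.52, adjusted p = 0.00345). Gpr183 and Aldh3b1, chosen after their values were seen, are 2 of 11 genes that passed in each of the 16 fits without 1 library. The other 9 were Flt3, Il7r, Ccr9, Rnf128, Cd300lf, Trbc1, Trbc2, Plbd1 and Tmem56.

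**Figure D3:**
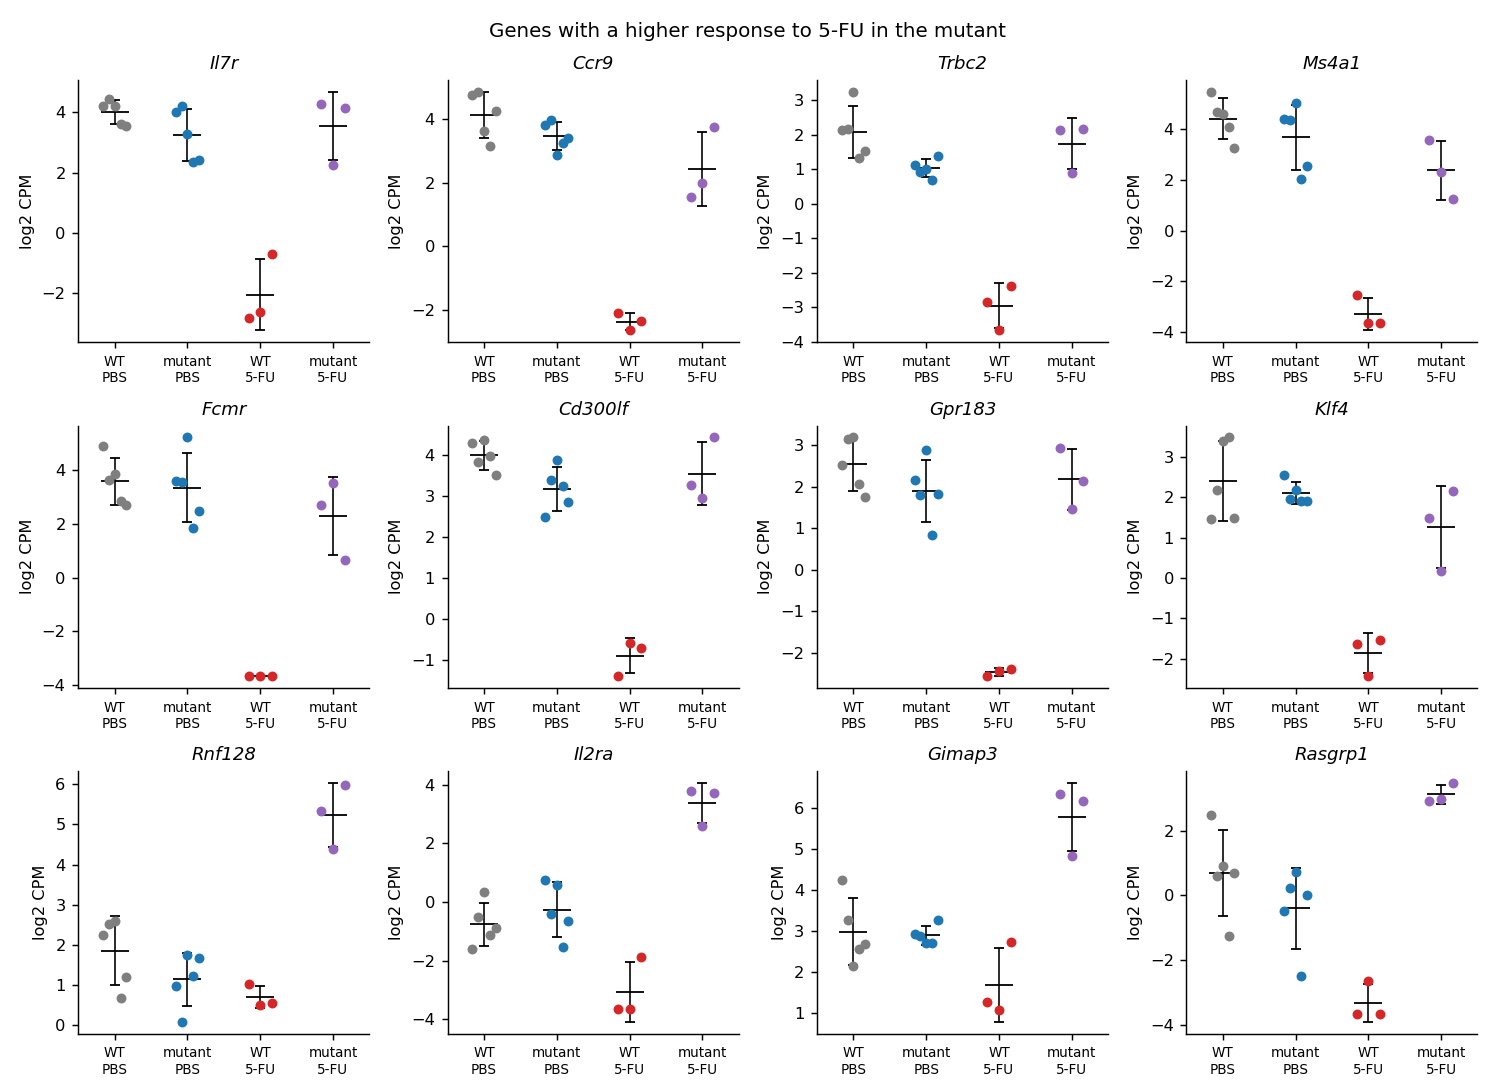
Log2 CPM (TMM, prior count of 2) of 12 genes with a higher response in the mutant, 1 point per library, with the mean and SD of each of the 4 groups. In the first 8 panels the 3 wild-type 5-FU libraries lie apart below the rest, in Rnf128, Il2ra and Gimap3 the mutant 5-FU libraries lie above the rest, and in Rasgrp1 both hold.

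**Figure D4:**
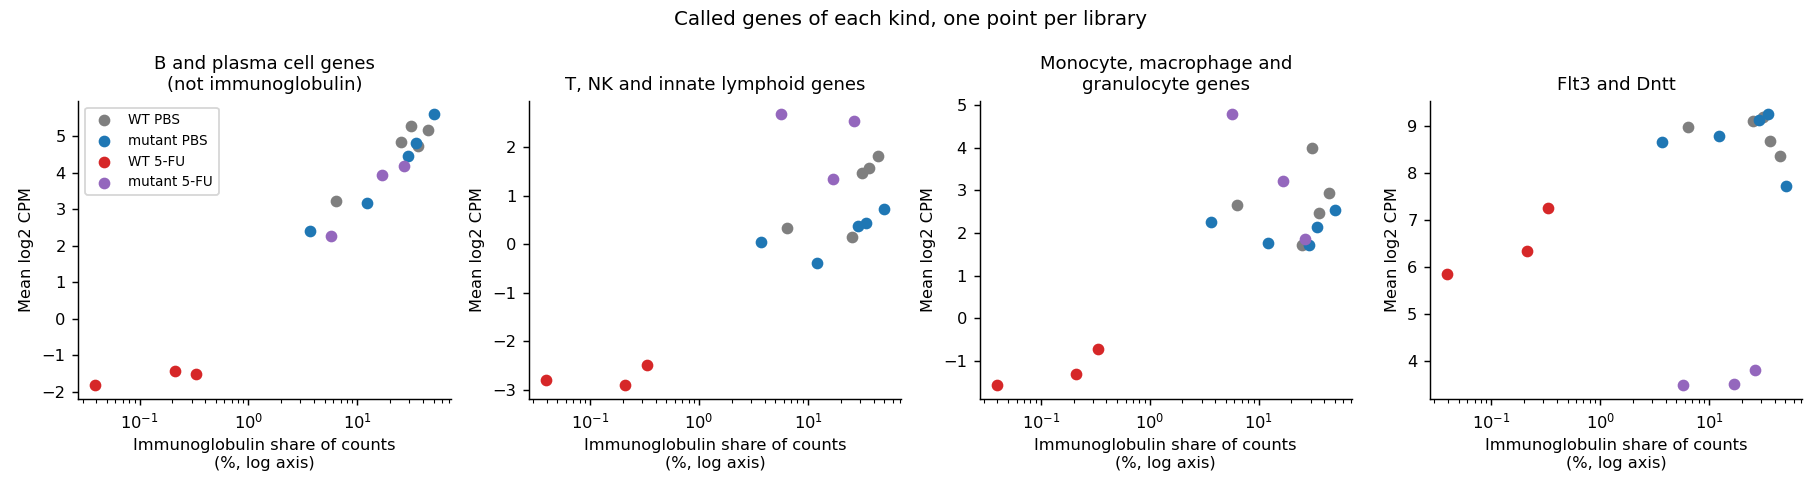
Mean log2 CPM of the called genes of each kind (11 B and plasma cell genes without the 2 immunoglobulin genes, 18, 18 and 2 genes) against the immunoglobulin share of the library's counts (percent, log axis), 1 point per library, coloured by group. B and plasma cell genes, called for low values in wild-type 5-FU, lie lowest in that group, which has the lowest shares, while Flt3 and Dntt lie lowest in the 3 mutant 5-FU libraries, whose shares overlap those of the PBS libraries.

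Summed markers of B cells, plasma cells and monocytes were lower in all 3 wild-type 5-FU libraries than in the other 13. The same held for dendritic cell and MHC class II genes (311 to 483 CPM, against 1128 or more). It held too for erythroid genes (679 to 746, against 921 or more) and for eosinophil, basophil and mast cell genes (22.2 to 50.1, against 91.3 or more). The part of these markers in the results was not tested beyond the covariate fit. The T and NK cell markers given above did not share this order. The 14 B cell markers summed to 316 to 1389 CPM in wild-type PBS, 258 to 1614 in mutant PBS, 93 to 130 in wild-type 5-FU (with Pax5, Blk and Fcmr at 0) and 196 to 554 in mutant 5-FU. For the 12 plasma cell markers the sums were 3338 to 65571, 1742 to 75177, 271 to 546 and 2564 to 19943 CPM in the same order. The 16 monocyte and macrophage markers summed to 1682 to 9626, 1221 to 12988, 161 to 331 and 963 to 1264 CPM. Neutrophil secondary granule genes were low after 5-FU in both genotypes, at 1.65 to 39.1 CPM in wild type and 2.68 to 90.1 CPM in the mutant, against 3258 to 25512 CPM under PBS.

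The highest median differences among the blood lineage lists were those of the lymphocyte and plasma cell lists, whose order among themselves turned with the treatment of genes at 0. The 15 T and NK cell genes had a median of 5.75 (3.34 with genes at 0 in a group set to their bound), with 5 higher (Trbc2, Trbc1, Il2rb, Cd2 and Ncr1). The 14 B cell genes had 4.98 (4.80), with 5 higher, among them Ms4a1, Fcmr, Blk and Pou2af1, and the 12 plasma cell genes 4.84, with Irf4 higher. Against 0.558% of all genes higher, none of the other mature lineage lists had more than 1 such gene. Medians were 2.74 for 16 monocyte and macrophage genes, 2.60 for 12 neutrophil secondary granule genes, 2.06 for 13 erythroid genes and 1.65 for 14 dendritic cell and MHC class II genes, of which Adgre1 alone passed. The median was -0.68 for 12 eosinophil, basophil and mast cell genes, with none past the threshold, and -0.07 for 14 megakaryocyte and platelet genes, where Selp was lower. Early myeloid granule genes, made by granulocyte and monocyte progenitors, had -1.72 over 9 genes with none past the threshold.

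The erythroid list had its largest values in the alpha-globin genes Hba-a1 (9.75, adjusted p = 0.057) and Hba-a2 (9.04, adjusted p = 0.059), paralogs whose reads the counting may share. In mutant 5-FU replicates 1 to 3, Hba-a1 held 52.5, 2.66 and 5.19 CPM and Hba-a2 109, 4.25 and 6.99 CPM. Wild-type 5-FU held 6 counts of Hba-a1 and 19 of Hba-a2 over its 3 libraries. Mpo, the myeloperoxidase of the early myeloid list, held 483, 131 and 2515 CPM in wild-type 5-FU and 6.25, 172 and 83.1 CPM in mutant 5-FU. The 3 wild-type values spread widely, and the 2 groups overlapped at 131 and 172 CPM (difference -4.02 ± 1.53, adjusted p = 0.326). Cebpa, a factor that granulocyte progenitors need, was at -1.72 ± 0.67 (adjusted p = 0.324).

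The genes that mark stem cells gave no call. Of 20 stem cell genes none passed, at a median of -0.17, and their response had a median of 0.57 (log2) for wild type and 0.55 for the mutant. Slamf1, which encodes the stem cell marker CD150, held 5.55, 5.2, 2.72, 4.19 and 5.14 CPM in wild-type PBS, 19, 12.1, 19.6, 15.3 and 21.3 CPM in mutant PBS, 36.8, 37.9 and 43.7 CPM in wild-type 5-FU and 74.1, 71.2 and 61.4 CPM in mutant 5-FU. No library of 1 group overlapped another group. Slamf1 rose with 5-FU in wild type (3.11 ± 0.23, adjusted p = 2.17e-06) and in the mutant (1.98 ± 0.22, adjusted p = 0.000154) and was higher in the mutant under PBS (1.93, adjusted p = 0.000945). Its difference of responses was -1.13 ± 0.32 (adjusted p = 0.138). Procr, which encodes the stem cell marker EPCR, was at 0.79.

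Gata2 itself held 62.6, 57.5, 54.1, 81.8 and 113 CPM in wild-type PBS, 109, 72.8, 48.4, 164 and 167 CPM in mutant PBS, 204, 224 and 192 CPM in wild-type 5-FU and 169, 208 and 197 CPM in mutant 5-FU. The 5-FU groups overlapped each other and lay above every PBS library. It rose by 1.48 ± 0.33 in wild type (adjusted p = 0.0103), against 0.77 ± 0.34 in the mutant (adjusted p = 0.329), and the difference of -0.71 ± 0.48 (adjusted p = 0.602) did not pass. A change of 1 base in an intron leaves the transcript whole, so the Gata2 level does not check the genotype labels. In a list of 17 genes, Gata2 itself and transcription factors that work with GATA2, none passed (median -0.07). Among 16 cytokine and niche receptors Flt3 alone did (median -0.45). The 2 genes of the gate gave no call, at -1.14 ± 0.69 for Kit (adjusted p = 0.564) and 1.75 ± 1.30 for Ly6a (adjusted p = 0.627).

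Lists for general cell states gave 1 call in all. It was Klf4, in the immediate early list of 19 genes (median 1.52). Medians were -0.27 for 11 heat-shock chaperones, -0.58 for 18 DNA replication genes, -0.64 for 17 mitosis genes, 0.23 for 15 p53 targets, 0.66 for 15 interferon-stimulated genes and 1.39 for 13 genes of the secretory pathway and the unfolded protein response. Endothelial genes (13) and matrix and stromal genes (8) had medians of -0.02 and -0.27. Among the members with the smallest p, Top2a was at -0.96, Pola1 at -1.19, Trp53inp1 at 2.29, Ifit3 at 1.64 and Edem1 at 2.54, and none of these passed. With replicate number as a block, Trp53inp1 (adjusted p = 0.0328) and Edem1 (adjusted p = 0.0106) did. Replicate numbers do not pair the groups, and both genes changed direction with the immunoglobulin share as a covariate.

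The wild-type 5-FU libraries carried most of the calls, and each of the 3 mattered. Leaving out replicate 1, 2 or 3 of that group left 11, 15 and 41 genes called, against 51 to 309 when 1 library of another group was left out, the 309 without mutant PBS replicate 3. With code prefix as a factor, where the wild-type response rests on 1 5-FU library, all 97 genes kept their direction. Their medians were 5.60 for the higher and -2.81 for the lower genes. This fit and those that follow reuse libraries by which the 97 were called, so a kept direction or call is no separate support. With the immunoglobulin share as a covariate 85 of the 92 higher and all 5 lower genes kept their direction, with medians of 4.31 and -2.22, and none passed. No library of another group had a share in the range of wild-type 5-FU. With replicate number as a block 383 genes were called, among them 91 of the 92 higher and all 5 lower genes.

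**Figure D5:**
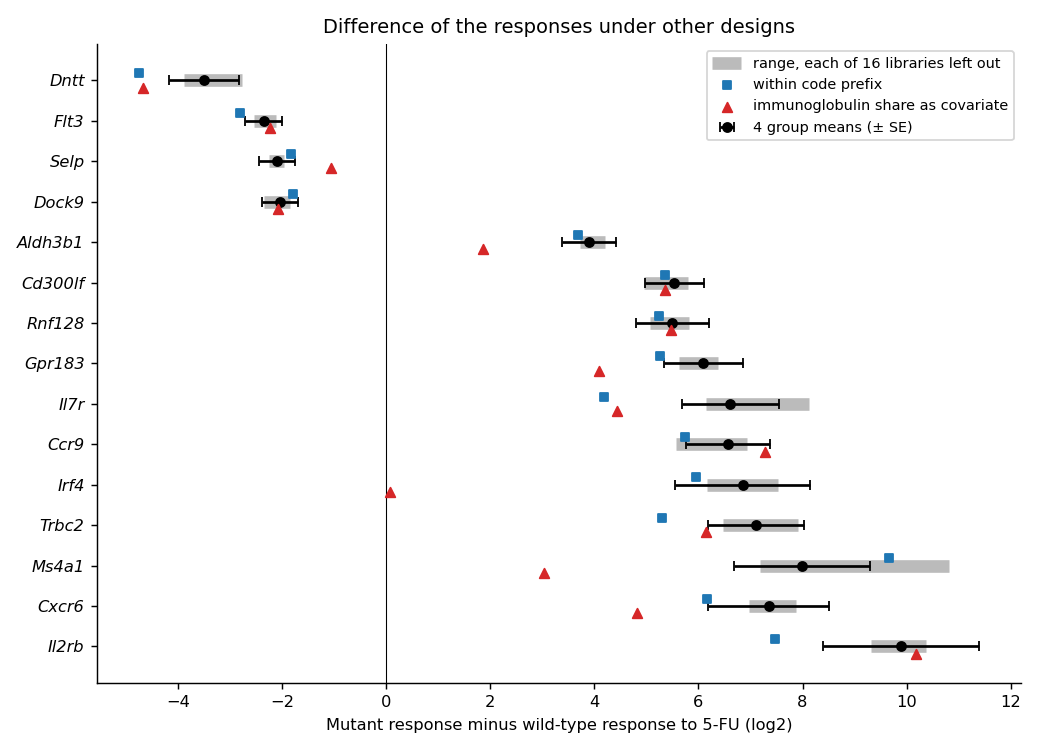
Difference of the 2 responses (log2, mutant minus wild type) for 15 genes under the fit of 4 group means (black, ± SE), with code prefix as a factor (blue squares) and with the immunoglobulin share as a covariate (red triangles); grey bars give the range over the 16 fits that leave out 1 library. Flt3, Rnf128 and Cd300lf move little with the covariate, while Irf4 goes from 6.85 to 0.07.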

How the data were processed

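RNA of sorted LSK cells was sequenced after NuGEN Ovation Ultralow library preparation, per the labels' protocols. The deposited tables hold, per gene, expected counts, TPM and FPKM made by the authors with RSEM 1.3.1 (FastQC 0.11.2, mm10), per the submitters' processing notes and file headers; the deposited gene lengths and FPKM served only to check the tables. The aligner is not given in the sources used here. Of 53342 gene IDs, 99.8% matched GENCODE M21, and 99 symbols are shared by more than 1 ID. Expected counts were rounded to whole numbers and fitted with edgeR 4.0.16 in R 4.3.3 (filterByExpr with a minimum count of 10, TMM factors 0.508 to 1.37, robust glmQLFit, 1 mean per group, glmQLFTest on the difference of differences), with Benjamini-Hochberg adjustment over 16482 genes and a threshold of 0.05. DESeq2 1.42.0, limma 3.58.1 and further settings served as alternatives, given with their effect in the closing section. On simulated counts of 16063 genes with these library sizes the fit called 51 of 100 genes with a 4-fold and 84 of 100 with an 8-fold difference of responses. The differences were planted in mutant 5-FU only, in genes above 5 CPM on average. These rates therefore do not cover genes that are low in wild-type 5-FU. Intervals cover counting error only, and 3 counts equal 0.0798 to 0.272 CPM. The genes named were Gata2, Kit, Ly6a and Flt3, up to 6 called genes of at least 5 CPM with the largest difference per class, every lower gene, and 2 members per list with the smallest p; others are marked where they appear. The values of 2 called genes are not reported here, though the counts include them. The members and the 23 gene lists were chosen with earlier results of these data known. Same-numbered PBS libraries of the 2 genotypes deviated together over the 2000 most variable genes (correlations 0.18, 0.23, 0.42, 0.25 and 0.54), while all other same-numbered pairs lay between -0.14 and 0.13, so the numbers do not pair the 4 groups.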

Additional observations from a re-analysis of the deposited data

Results flagged for a closer look

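Among the genes named, 26 had a response to 5-FU that differed between the genotypes by the edgeR test of the difference itself. On the log2 scale the lower ones were Flt3 at -2.35, Dntt at -3.50, Dock9 at -2.04 and Selp at -2.09. The higher ones of B and plasma cells were Blk at 9.07, Fcmr at 10.36, Igkv1-117 at 14.30, Ikzf3 at 8.04, Irf4 at 6.85 and Ms4a1 at 7.99. Those of T, NK and innate lymphoid cells and of lymphoid progenitors were Ccr9 at 6.57, Cxcr6 at 7.35, Gimap3 at 4.34, Il2ra at 6.83, Il2rb at 9.89, Il7r at 6.61, Rasgrp1 at 9.30, Tcrg-C4 at 9.77, Trbc1 at 8.74 and Trbc2 at 7.11. The others were Adgre1 at 5.29, Bcl2a1a at 8.17, Bcl2a1d at 8.06, Klf4 at 4.27, Rnf128 at 5.50 and Treml4 at 9.04.

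In 17 of 128 groups checked, 1 PBS library lay far from the other 4 by Dixon's criterion, which chance meets in about 1 group in 20. Mutant PBS replicate 3 stood apart for 7 genes, with 204 CPM of Flt3, 37.5 of Fcmr, 28.2 of Cldn5, 2.03 of Bcl2a1d, 3925 of Camp, 4666 of Ngp and 3511 of Ly6a. Its Flt3 value was the lowest of its group. Wild-type PBS replicate 3 stood apart for 6 genes, with 3787 CPM of Ly6a, 3614 of Camp, 35.2 of Ear2, 13 of Hspb1, 9.34 of Trbc2 and 5.9 of Bcl2a1a. The remaining 4 were wild-type PBS replicate 1 with 13.1 CPM of Adgre1 and 5.55 of Rasgrp1, wild-type PBS replicate 5 with 119 CPM of Edem1 and mutant PBS replicate 1 with 60.8 CPM of Procr. Flt3 and Trbc2 passed the test of the difference of responses without any 1 of these libraries. Adgre1 lost its call in that edgeR test without wild-type PBS replicate 1 (adjusted p = 0.0548).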

How the results depend on the processing

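Against 97 genes called (92 higher, 5 lower, 69 with wild-type 5-FU low), DESeq2 called 581 (491, 90, 358), limma-voom with sample quality weights 719 (532, 187, 346), log2(TPM + 1) 52 (48, 4, 31), and log2(TPM + 0.1) 100 with 0 lower. Of the 97, all passed with DESeq2, 92 with limma-voom, 22 under log2(TPM + 1) and 34 under log2(TPM + 0.1). None of the 5 lower genes passed under either TPM setting, so the lower genes called under log2(TPM + 1) were other genes. With replicate number as a block there were 383 (313, 70, 257). Of the genes named, that block added Cd74, Cx3cr1, Ear2, Edem1, Sdc1, Trp53inp1 and Zbp1 and lost none. There were 27 (23, 4, 16) with whether the code begins with 0 as a covariate, and 22 of these were among the 97. The immunoglobulin share as a covariate left 0 (0, 0, 0). No count is given with code prefix as a factor, where the wild-type response rests on 1 5-FU library. Leaving immunoglobulin genes out gave 8 lower genes. The fits without 1 library called 11 to 309 (10 to 270 higher, 1 to 39 lower, 9 to 203 with wild-type 5-FU low). Leaving out the 6 PBS libraries whose codes begin with 0, chosen after seeing the data, left 55 (44, 11, 25). Of these, 32 were among the 97. All 97 kept their direction, in libraries that had served to call them. That fit leaves mutant 5-FU as the only group whose codes begin with 0, so it cannot tell the codes from the difference of responses. The covariate for codes that begin with 0 is set by the PBS libraries alone, since neither 5-FU group holds both kinds of code. The TPM scale moved the median of all genes to -0.81 and -0.93.

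With the immunoglobulin share as a covariate 7 of the 92 higher genes changed direction, among them Pou2af1 at -0.01 and Ighm at -0.37. The called genes chosen by the rule for named genes kept theirs under each setting, all of which reuse libraries that had served to call them. The uncalled genes given next did not. With code prefix as a factor Cenpf was at 0.05, Col4a1 at 0.51, Etv6 at 0.01, Gata2 at 0.10, Kit at 0.75, Ly6a at -0.30 and Pola1 at 0.12, and with whether the code begins with 0 as a covariate Col4a1 was at 0.08, Gata2 at 0.27, Kit at 0.19 and Ly6a at -0.65. With the immunoglobulin share Cd74 was at -1.20, Cdt1 0.28, Cenpf 0.87, Cldn5 -4.33, Col4a1 0.78, Edem1 -1.62, Etv6 1.02, Gata2 1.33, Herpud1 -1.41, Hspb1 -0.86, Itga2b 0.15, Kit 1.98, Ly6a -4.27, Pdgfrb 0.63, Pecam1 0.25, Pola1 0.80, Sdc1 -0.54, Top2a 0.59, Trp53inp1 -1.43, Zbp1 -1.74 and Zfpm1 0.85. Procr was at -0.33 under log2(TPM + 1) and -0.34 under log2(TPM + 0.1), and Hspb1 at -0.29 under the first. The cause of these moves was not tested. Depth limits the genes at 0 to 3 counts in wild-type 5-FU, where the size of a fold is a bound or carries a wide interval.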
